A study of Mus musculus with 12 samples.

Results

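The CCR2 and CX3CR1 monocyte recruitment axis was followed in mouse skin wounds through 10 genes, chosen by name out of the 55487 genes in the deposited tables, and all 10 were found. They are 3 receptor genes (Ccr2, Cx3cr1 and Ccr1) and 4 ligand genes grouped here as CCR2-binding (Ccl2, Ccl7, Ccl8 and Ccl12). The others are the CX3CR1 ligand gene Cx3cl1, the CCR1 ligand gene Ccl3, and Ly6c2, which encodes a surface protein of classical monocytes. The genes were taken by name for their roles in this axis, at a time when earlier results of these data were known, so the counts of members past a threshold are a description.

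Classical monocytes leave the bone marrow and enter injured tissue through CCR2, the receptor for CCL2, CCL7 and CCL12, and they carry LY6C on their surface. Once in the wound they lose LY6C and mature into macrophages, while CX3CR1 marks patrolling monocytes and many tissue macrophages and binds CX3CL1 (fractalkine), a chemokine that is made as a membrane protein and can be shed. CCR1 is found on monocytes and neutrophils and binds CCL3 and CCL7 among others. Mouse CCL8 binds CCR8, and whether it acts through CCR2 was not examined here.

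Skin wounds were made by punch biopsy on the backs of 6-week-old male C57BL/6JNarl mice, and bulk RNA was sequenced from the wound with its surrounding skin. The sham group received 200 µL of Pluronic F127 (P-F127), a carrier gel at 25% in saline, once a day, and the CAP-treated group the same volume and gel with 10 µM capsaicin (CAP), so that every wound in the comparison carried the gel. With 3 libraries each, the groups were P-F127 at day 3, CAP at day 3, P-F127 at day 6 and CAP at day 6. Each mouse had 2 wounds, and no source used here says which mouse gave which library, so the p-values measure the spread between libraries. The design asks how CAP changes gene expression in the wound at day 3 and day 6, which the study calls early phases.

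Values are TPM (transcript abundance scaled for length and library total), so depth is unknown and no counting error can be given. Every mean ± SD is over the 3 libraries of a group. A gene was called past the threshold, and is said to have risen or fallen, when its limma p, before adjustment, was under 0.05 and it differed by 2-fold or more on the scale log2(TPM + 0.1) (the study's cut-offs for p and fold, applied here to another test and scale). The standard error of a log2 difference is given as SE. An exact 2-sided permutation test of 3 against 3 libraries cannot give a p below 0.1.

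All libraries carried the markers of skin. The summed TPM of 8 keratinocyte markers ranged from 31106 to 97417, and that of 8 fibroblast markers from 10637 to 26617. In 10 libraries between 2.19% and 5.01% of 16169 genes lay 2-fold or more from the mean of the other 2 libraries of their group. CAP day 6 replicate 2 was at 7.60% and CAP day 6 replicate 3 at 6.62%. Counts at day 6 are also given without each of them.

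The 4 CCR2-binding ligand genes lie in the same chemokine cluster on mouse chromosome 11 (GRCm38). In order along the plus strand they are Ccl2 at chr11:82035571-82037453, Ccl7 at chr11:82045712-82047525, Ccl12 at chr11:82101845-82103400 and Ccl8 at chr11:82115185-82116799, with Ccl3 further on at chr11:83647844-83649355 on the minus strand. All are protein-coding. Their coding sequences are related but distinct: identity was highest between Ccl8 and Ccl12 (70.8%) and lowest between Ccl7 and Ccl3 (54.4%), and no stretch of 31 bases of any of these 5 genes recurs in another gene. Ccr2 (chr9:124101950-124113557, plus strand) and Ccr1 (chr9:123962124-123968692, minus strand) are close neighbours on chromosome 9, where Cx3cr1 also lies (chr9:119901616-120069879, minus strand). The span of Cx3cr1 overlaps 9 other genes, 3 of them on its own strand, and its exons overlap those of Gm33858 on the other strand. No source used here says whether reads were assigned by strand. Cx3cl1 is at chr8:94772009-94782427 on the plus strand.

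Ly6c2 (chr15:75108158-75111970, minus strand) is the member whose reads are hardest to assign. Its coding sequence matches that of its neighbour Ly6c1, a gene of endothelial cells and other leukocytes, at 387 of 396 bases (97.7%). The first 90 coding bases of both are shown from the GENCODE M21 transcripts, with the 6 bases that differ in capitals.
Ly6c2: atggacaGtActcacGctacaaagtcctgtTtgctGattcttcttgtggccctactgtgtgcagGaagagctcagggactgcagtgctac
Ly6c1: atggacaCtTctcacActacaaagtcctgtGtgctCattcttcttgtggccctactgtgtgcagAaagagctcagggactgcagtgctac
Of the 31-base stretches in the coding transcripts of Ly6c2, 52.5% also occur in another gene. The split of reads between the pair is therefore an estimate, and Ly6c2 is given both alone and summed with Ly6c1. Ly6c1 supplied most of the pair's TPM in every library, so the sum mostly follows Ly6c1. It cannot show whether Ly6c2 itself changed by 2-fold.

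RefSeq (GRCm38.p6) promoter entries were matched for 8 of the 10 genes, all but Ccl2 and Ccl7. Those of the neighbours Ccl12 and Ccl8 and of Ly6c2 are shown, since these 3 genes had the lowest fitted values but for the receptors at day 3. Each is the 250 bases before the start site, with motif matches in capitals.
Ccl12 (chr11:82101595-82101844, plus strand): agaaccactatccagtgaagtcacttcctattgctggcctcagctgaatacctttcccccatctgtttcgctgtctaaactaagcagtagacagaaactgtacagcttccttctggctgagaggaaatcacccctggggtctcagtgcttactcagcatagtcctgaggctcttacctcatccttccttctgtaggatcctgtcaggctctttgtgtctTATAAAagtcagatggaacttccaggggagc
Ccl8 (chr11:82114935-82115184, plus strand): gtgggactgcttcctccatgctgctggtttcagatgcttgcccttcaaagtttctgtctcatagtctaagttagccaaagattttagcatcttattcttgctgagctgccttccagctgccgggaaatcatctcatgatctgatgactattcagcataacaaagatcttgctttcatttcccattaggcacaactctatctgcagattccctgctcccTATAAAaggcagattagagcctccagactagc
Ly6c2 (chr15:75111972-75112221, minus strand): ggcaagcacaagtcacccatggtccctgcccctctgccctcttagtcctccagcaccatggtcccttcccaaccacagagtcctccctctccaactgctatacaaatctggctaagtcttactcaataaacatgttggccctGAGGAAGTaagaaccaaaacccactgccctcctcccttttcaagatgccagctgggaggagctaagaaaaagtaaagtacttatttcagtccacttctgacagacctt
In Ccl12 and Ccl8 the capitals are the TATA box letters TATAAA, at −31 to −26 and −32 to −27 from the start site. In Ly6c2 they are GAGGAAGT, a form of the site of PU.1, a transcription factor of myeloid cells, at −108 to −101. A further GAGGAAGT of Ly6c2 lies at 26 to 33, after the start site and beyond the printed bases. Both strands were searched from 250 bases before to 50 after the start. TATAAA was found for 3 of the 8 genes (Cx3cl1 is the other) and in 13.6% of 32851 mouse promoters, and GAGGAAGT for 1 of 8 and in 3.2% of promoters. The kappaB motif (GGG, any 3 bases, TTCC) was found for 1 of 8 genes (Ly6c2, at a second start site) and in 5.56% of promoters. The ISRE motif (GAAA, any 2 bases, GAAA), the GAS letters TTCNNNGAA and the AP-1 letters TGANTCA were found for 0 of 8, and in 3.44%, 8.3% and 7.81% of all promoters.

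**Figure D1:**
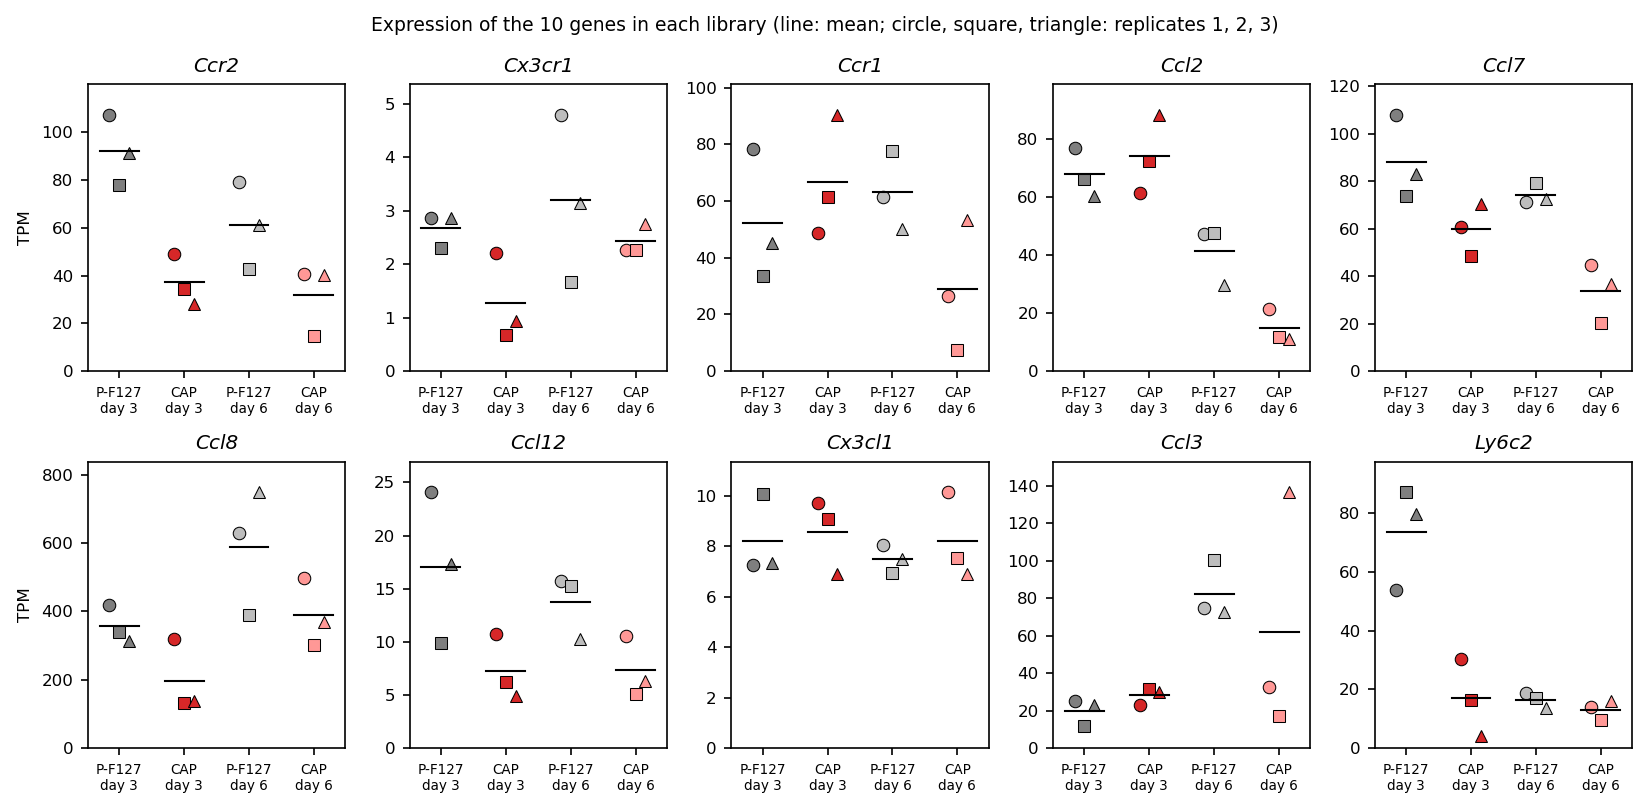
TPM (linear axis from 0) of the 10 genes in each of 12 libraries, in 4 groups by treatment and day; symbols mark replicates 1 to 3 and the line the group mean. Ly6c2 was at 53.9 TPM or more in the P-F127 day 3 libraries and at 30.4 TPM or less in all others, and Ccl2 was lowest in CAP wounds at day 6.

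At day 3, expression of Ccr2, Cx3cr1, Ccl12 and Ly6c2 fell in the CAP-treated wounds and no member rose. Thus 4 of 10 members fell, where 1.16% of 18330 genes tested did, and 0 of 10 rose, where 0.426% of genes did. Ccr2, Cx3cr1 and Ccl12 were already among the genes the study itself listed as downregulated at day 3. The count of members is therefore no independent result. The members' median log2 difference was −0.76, against −0.05 over all genes. In 4 members (Ccr2, Cx3cr1, Ccl7 and Ly6c2) every CAP library lay below every P-F127 library, where 8.75% of genes did. Adjusted over all genes, limma's Benjamini-Hochberg p for the members ranged from 0.50 to 0.996, so 0 of 10 passed an adjusted threshold of 0.05 (0.0164% of all genes did). Without CAP replicate 1, Ccr2 and Ccl8 passed it, as did 48 genes in all. With all 6 libraries 6 of 10 had an unadjusted p under 0.05, beside 6.6% of all genes.

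Ccr2, the receptor that brings classical monocytes into the wound, was at 107, 78.0 and 91.3 TPM in the P-F127 libraries and at 49.2, 34.4 and 28.2 TPM in the CAP libraries. The groups did not overlap, and the highest CAP library was well under the lowest P-F127 library. The log2 difference was −1.33 (SE 0.22, limma's unadjusted p = 5.25e-04, exact permutation p = 0.1), or 2.52-fold lower in the CAP-treated wounds. It stayed past the threshold in all 14 alternatives run, between −1.55 and −1.15. In bulk tissue, fewer cells of a type and less RNA per cell cannot be told apart.

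Ly6c2 showed the largest difference among the members at day 3. Its TPM was 53.9, 87.0 and 79.8 in the P-F127 wounds against 30.4, 16.5 and 4.16 in the CAP-treated wounds. The groups were apart, and the CAP libraries spread over 7.32-fold among themselves. The fitted log2 difference was −2.48 (SE 0.67, limma's unadjusted p = 0.00781), which is 5.58-fold lower. Leaving out 1 library at a time kept it between −3.10 and −1.68. Ly6c1 was at 365, 404 and 463 TPM against 253, 206 and 326 TPM, also without overlap. The sum of the pair gave a log2 difference of −0.81 (limma's unadjusted p = 0.00233), under the 2-fold threshold. This sum mostly follows Ly6c1 and does not test a 2-fold change of Ly6c2. Ly6c2 made up 15.1 ± 2.43% of the pair's TPM in the P-F127 wounds and 6.47 ± 4.81% in the CAP-treated wounds (exact permutation p = 0.1).

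Cx3cr1 was low throughout. It had 2.86, 2.31 and 2.86 TPM in the P-F127 libraries and 2.22, 0.673 and 0.929 TPM in the CAP libraries, a log2 difference of −1.17 (SE 0.41, limma's unadjusted p = 0.0258). The groups were apart by a narrow margin, since CAP replicate 1 came close to P-F127 replicate 2. The call was lost with a pseudocount of 1 TPM (−0.75) and without P-F127 replicate 1 or 3 or CAP replicate 2 or 3. Ccr1 did not follow the other receptors. It was at 78.4, 33.5 and 45.2 TPM in the P-F127 wounds and at 48.7, 61.5 and 90.3 TPM in CAP-treated wounds, overlapping groups with a log2 difference of 0.40 (95% interval −0.43 to 1.22).

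The CCR2-binding ligands did not move as one at day 3. Ccl2, the main monocyte chemoattractant, was at 77.1, 66.3 and 60.4 TPM in the P-F127 wounds and at 61.6, 72.7 and 88.4 TPM in CAP-treated wounds. These groups overlapped almost fully (log2 difference 0.12, 95% interval −0.25 to 0.49). Ccl12, also known as MCP-5, fell from 24.1, 9.90 and 17.3 TPM to 10.8, 6.19 and 4.92 TPM. Its groups overlapped, and the log2 difference of −1.20 (SE 0.39, limma's unadjusted p = 0.0187, exact permutation p = 0.2) lost its call without P-F127 replicate 1 or 3 or CAP replicate 2 or 3.

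Ccl8 was the most abundant ligand in TPM. It was at 417, 340.1 and 314 TPM in the P-F127 wounds and at 321, 133.5 and 138 TPM in CAP-treated wounds, so CAP replicate 1 lay within the sham range and the other CAP libraries far below it. The log2 difference was −0.97 (SE 0.34, limma's unadjusted p = 0.0246), or 1.96-fold lower, just under the threshold, and it was past it without CAP replicate 1 (−1.38) or P-F127 replicate 2 or 3. Ccl7, which binds CCR2 and CCR1, was at 108, 73.6 and 83.1 TPM against 60.6, 48.4 and 70.2 TPM. The groups were apart, and the log2 difference was −0.56 (SE 0.19, limma's unadjusted p = 0.0204), under 2-fold. Cx3cl1 (log2 difference 0.06, 95% interval −0.40 to 0.52) and Ccl3 (0.56, 95% interval −0.14 to 1.27) had overlapping groups.

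**Figure D2:**
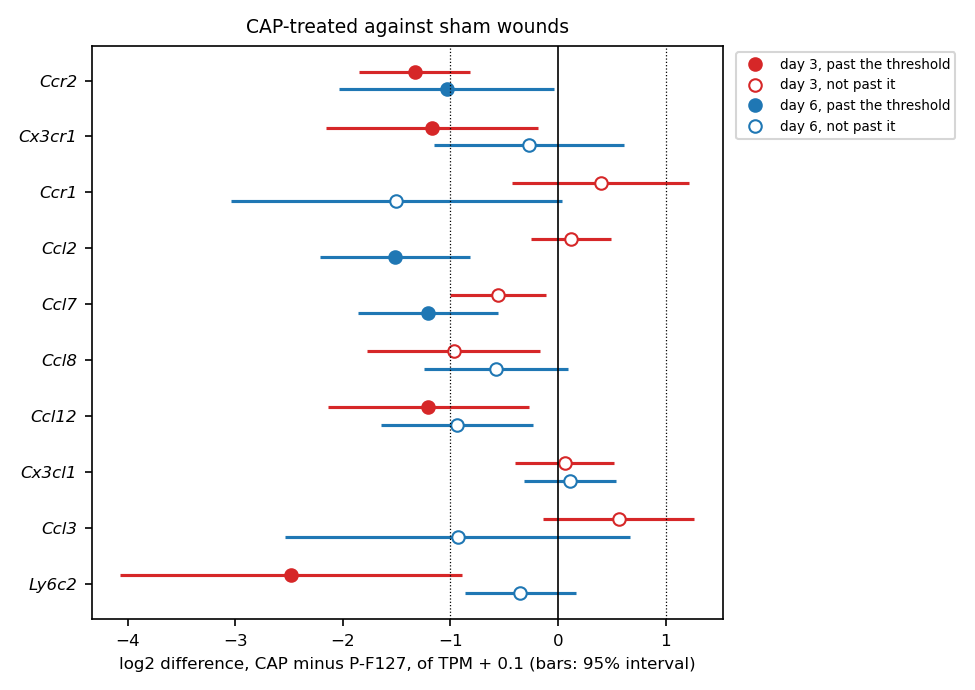
Log2 difference of TPM + 0.1, CAP minus P-F127, for each of the 10 genes at day 3 (red) and day 6 (blue), with 95% intervals from limma; filled points are past the threshold and dotted lines mark 2-fold. Ccr2 is filled at both days, Ly6c2, Cx3cr1 and Ccl12 only at day 3, and Ccl2 and Ccl7 only at day 6.

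At day 6, Ccl2, Ccl7 and Ccr2 fell in the CAP-treated wounds and no member rose. These 3 of 10 members stand beside 2.34% of 18323 genes that fell, and 0 of 10 rose beside 1.46%. The fitted values of 9 of the 10 members were negative, with a median of −0.94 against −0.12 over all genes. The same 3 members had groups that did not overlap, beside 18% of all genes. Limma's adjusted p over all genes was between 0.205 and 0.756 for the members (0% of all genes were under 0.05), and without CAP replicate 3 it was under 0.05 for 1430 genes and for 1 member, Ccl3 (0.0318). With all 6 libraries 4 of 10 had an unadjusted p under 0.05, beside 19.2% of all genes. Of all genes past the threshold, 268 were higher and 429 lower in the CAP-treated wounds. With median-ratio scaling, which moved the median of all genes up by 0.12, 399 were higher and 287 lower, and with quantile normalization 397 and 251. Under both, 2 members fell (Ccl2 and Ccl7).

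Ccl2 was at 47.3, 47.7 and 29.7 TPM in the P-F127 wounds and at 21.3, 11.8 and 11.2 TPM in CAP-treated wounds at day 6. All 3 CAP libraries were below the sham range. The log2 difference was −1.52 (SE 0.30, limma's unadjusted p = 0.00135, exact permutation p = 0.1), or 2.86-fold lower, and it stayed past the threshold in all 14 alternatives, between −1.81 and −1.35. Ccl7 was at 71.1, 79.3 and 72.5 TPM in the sham group, the tightest of its groups, and at 44.8, 20.1 and 36.5 TPM in the CAP group. Its log2 difference was −1.21 (SE 0.28, limma's unadjusted p = 0.00322). Without CAP replicate 2 the difference was −0.87, under 2-fold.

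Ccr2 remained lower at day 6 by a smaller margin. The values were 79.2, 42.9 and 61.2 TPM in the P-F127 wounds and 40.6, 14.7 and 40.2 TPM in CAP-treated wounds, with the highest CAP library just under the lowest sham library. The log2 difference was −1.04 (SE 0.42, limma's unadjusted p = 0.0442). The call was lost under median-ratio scaling (−0.91), under quantile normalization (−0.93), if low values were not filtered, and without P-F127 replicate 1 (−0.83), P-F127 replicate 3 (−1.01) or CAP replicate 2 (−0.55).

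Ccr1 varied most among the receptors in the CAP libraries of day 6. It was at 61.3, 77.8 and 50.02 TPM in the P-F127 wounds and at 26.4, 7.36 and 53.3 TPM in CAP-treated wounds, where the libraries differed by 7.24-fold among themselves. Its log2 difference of −1.50 (95% interval −3.04 to 0.03, limma's unadjusted p = 0.0538) was not past the threshold, and without CAP replicate 3 it was −2.14 and past it. Ccl3 behaved in the same uneven way, with 74.6, 100.2 and 72.7 TPM against 32.8, 17.3 and 136.5 TPM (log2 difference −0.93, 95% interval −2.54 to 0.67). In both genes CAP replicate 2 was lowest and CAP replicate 3 highest.

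The other ligands had overlapping groups at day 6. Ccl8 was at 629, 389 and 748 TPM against 499, 301 and 369 TPM (log2 difference −0.57, limma's unadjusted p = 0.0814). Ccl12 was at 15.7, 15.3 and 10.3 TPM against 10.6, 5.08 and 6.36 TPM, and its log2 difference of −0.94 (limma's unadjusted p = 0.0160) was under 2-fold. Ly6c2 was at 18.7, 17.1 and 13.9 TPM against 13.9, 9.56 and 16.0 TPM (log2 difference −0.35, 95% interval −0.86 to 0.17), and its sum with Ly6c1 gave −0.06. Cx3cr1 (−0.27, 95% interval −1.15 to 0.61) and Cx3cl1 (0.11, 95% interval −0.31 to 0.54) were not past the threshold.

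Because a gene past the threshold at 1 day and not at the other is not thereby shown to differ between days, the difference of the 2 CAP effects was tested over all 12 libraries. The CAP effect differed between days for Ccl2, Ly6c2 and Ccr1, that is 3 of 10 members beside 4.9% of 20266 genes (1 higher and 2 lower, beside 2.18% and 2.73%). For Ccl2 the effect at day 6 was lower than that at day 3 by a log2 value of −1.64 (SE 0.36, limma's unadjusted p = 9.08e-04, limma's adjusted p = 0.428), and this held in all 19 alternatives, between −1.93 and −1.47. For Ly6c2 the effect at day 6 was higher, that is nearer to 0, by 2.13 (SE 0.78, limma's unadjusted p = 0.0192). The sum with Ly6c1, which mostly follows Ly6c1, gave 0.74, under 2-fold. For Ccr1 the value was −1.90 (SE 0.82, limma's unadjusted p = 0.0417), and the call was lost in 8 of 19 alternatives, 7 of them with 1 library left out (−1.12 without CAP day 6 replicate 2). The Ccr2 effects differed by 0.30 (95% interval −0.87 to 1.46, limma's unadjusted p = 0.586), and the other members were not past the threshold either. The adjusted p of the members ranged from 0.428 to 0.954, and 0% of all genes were under 0.05.

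From day 3 to day 6 the P-F127 wounds lost Ly6c2 and gained Ccl3. Here 1 of 10 members fell and 1 rose, where 1.61% of 18368 genes fell and 2.13% rose, and both were past an adjusted p of 0.05, as 2.29% of genes were. Those adjusted calls rest on the fit of these 6 libraries: in 1 fit of all 12 libraries, 0 genes were under 0.05 by limma's adjusted p, and without P-F127 day 3 replicate 3 there was 1 gene and no member (Ly6c2 0.0579, Ccl3 0.0790). Ly6c2 fell from 53.9, 87.0 and 79.8 TPM to 18.7, 17.1 and 13.9 TPM, a log2 difference of −2.13 (SE 0.20, limma's adjusted p = 0.0115), or 4.36-fold. Summed with Ly6c1, which supplied most of the sum, the difference was −0.62. Ccl3, a chemokine of activated macrophages and neutrophils, rose from 25.3, 11.8 and 23.2 TPM to 74.6, 100.2 and 72.7 TPM, a log2 difference of 2.09 (SE 0.29, limma's adjusted p = 0.0222), or 4.26-fold. It was past the unadjusted threshold in all 14 alternatives, while its adjusted p was over 0.05 also without any 1 of the P-F127 day 6 libraries (0.0539 to 0.0729). Ccl2 (−0.73, limma's unadjusted p = 0.00703, groups apart) and Ccr2 (−0.62, limma's unadjusted p = 0.0266) were lower and Ccl8 (0.68, limma's unadjusted p = 0.0251) higher at day 6 in their means, each by under 2-fold. The libraries at each day also enter the comparisons of CAP with P-F127, so these results are not independent of those above.

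**Figure D3:**
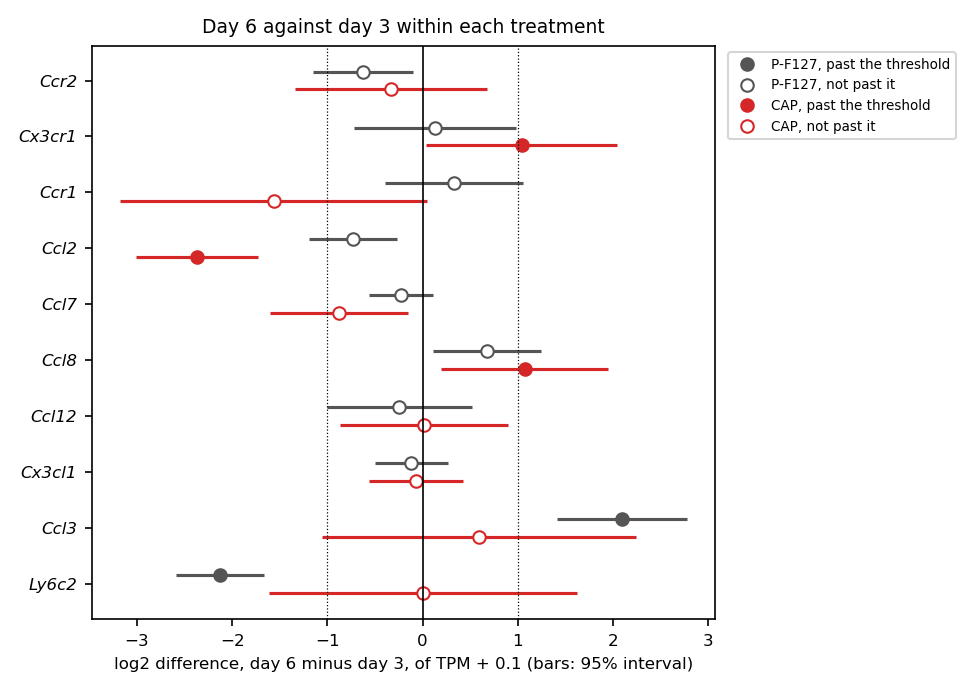
Log2 difference of TPM + 0.1, day 6 minus day 3, for each of the 10 genes in P-F127 wounds (grey) and CAP wounds (red), with 95% intervals from limma; filled points are past the threshold and dotted lines mark 2-fold. Ccl2 is furthest to the left in the CAP wounds (−2.37), and Ly6c2 in the P-F127 wounds (−2.13).

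In the CAP-treated wounds Ccl2 fell, and Ccl8 and Cx3cr1 rose, so 1 of 10 members fell and 2 rose, where 1.52% of 18202 genes fell and 1.27% rose. Whether these courses differ from those in the P-F127 wounds is answered by the difference of the CAP effects above, which was past the threshold for Ccl2 and Ly6c2 and not for Ccl8 (0.40, limma's unadjusted p = 0.431), Cx3cr1 (0.91, 0.155) or Ccl3 (−1.50, 0.0987). Ccl2 went from 61.6, 72.7 and 88.4 TPM to 21.3, 11.8 and 11.2 TPM, a log2 difference of −2.37 (SE 0.27, limma's unadjusted p = 6.28e-05, limma's adjusted p = 0.119, and 0.00870 in 1 fit of all 12 libraries), or 5.17-fold, past the threshold in all 14 alternatives. Ccl8 rose from 321, 133.5 and 138 TPM to 499, 301 and 369 TPM (log2 difference 1.07, SE 0.37, limma's unadjusted p = 0.0234). Its groups overlapped, and the call was lost without CAP day 3 replicate 2 (0.85), CAP day 3 replicate 3 (0.88) or CAP day 6 replicate 1 (0.88). Cx3cr1 rose from 2.22, 0.673 and 0.929 TPM to 2.27, 2.27 and 2.76 TPM, with a log2 difference of 1.04 (SE 0.42, limma's unadjusted p = 0.0444). That call was lost in 7 of 14 alternatives. Ly6c2 had a log2 difference of 0.01 (95% interval −1.61 to 1.62), or 0.12 summed with Ly6c1, in the CAP-treated wounds, where its day 3 level was already near the day 6 level of the sham group in its mean (17.0 ± 13.1 against 16.6 ± 2.47 TPM). Ccl7 was lower at day 6 with groups apart (−0.88, limma's unadjusted p = 0.0240), under 2-fold.

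Ordered by their group means, most neighbouring groups could not be separated by their spread. Ccr2 ran from P-F127 day 3 (92.2 ± 14.6 TPM) over P-F127 day 6 (61.1 ± 18.2) and CAP day 3 (37.2 ± 10.8) to CAP day 6 (31.8 ± 14.8), and each neighbouring pair overlapped. Ccl2 ran from CAP day 3 (74.2 ± 13.4 TPM) and P-F127 day 3 (67.9 ± 8.48), which overlapped, to P-F127 day 6 (41.6 ± 10.3) and CAP day 6 (14.8 ± 5.66), each apart from the group before it. Ccl7 had the same order as Ccr2, with P-F127 day 6 (74.3 ± 4.38 TPM) apart from CAP day 3 (59.7 ± 10.96), and CAP day 3 apart from CAP day 6 (33.8 ± 12.5). Ly6c2 separated P-F127 day 3 (73.6 ± 17.4 TPM) from the rest, which overlapped in turn. In Cx3cl1 the highest mean was 1.14 times the lowest, the narrowest range among the members, and all groups overlapped.

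The make-up of the CCR2-binding ligand transcripts was described from the same values, after these had been seen. Summed TPM of Ccl2, Ccl7, Ccl8 and Ccl12 was 530.4 ± 83.5 in the P-F127 wounds and 339 ± 102 in the CAP-treated wounds at day 3, where the groups did not overlap (exact permutation p = 0.1). At day 6 it was 718 ± 169 and 445.5 ± 120.0 (exact permutation p = 0.2). On average Ccl8 supplied most of the sum: 67.4%, 55.9%, 80.9% and 87.7% in P-F127 day 3, CAP day 3, P-F127 day 6 and CAP day 6. The CAP day 3 libraries were at 70.7%, 51.2% and 45.9%, overlapping the P-F127 libraries (exact permutation p = 0.4, and 0.2 between treatments at day 6). The share of Ccl2 went the other way, at 12.8%, 23.6%, 6.21% and 3.28%. The shares are parts of the same sum, so they are not independent. The sums thus mostly follow Ccl8, and the binding of its product to CCR2 was not examined here.

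The ratio of Ccl8 to Ccl2 TPM was between 5.13 and 5.42 in the P-F127 libraries at day 3. In the CAP libraries of that day it was 5.203, 1.84 and 1.57. At day 6 it was 13.3, 8.16 and 25.2 in the sham group and 23.4, 25.5 and 32.9 in the CAP group. Each day 6 library therefore had a higher ratio than each day 3 library, in both treatments (exact permutation p = 0.1 each). Between treatments the ratio averaged 2.87 in the CAP and 5.25 in the P-F127 libraries at day 3, and 27.3 and 15.5 at day 6. The groups overlapped at both days (exact permutation p = 0.2 each), and 3 against 3 libraries are too few for this test to show a difference.

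**Figure D4:**
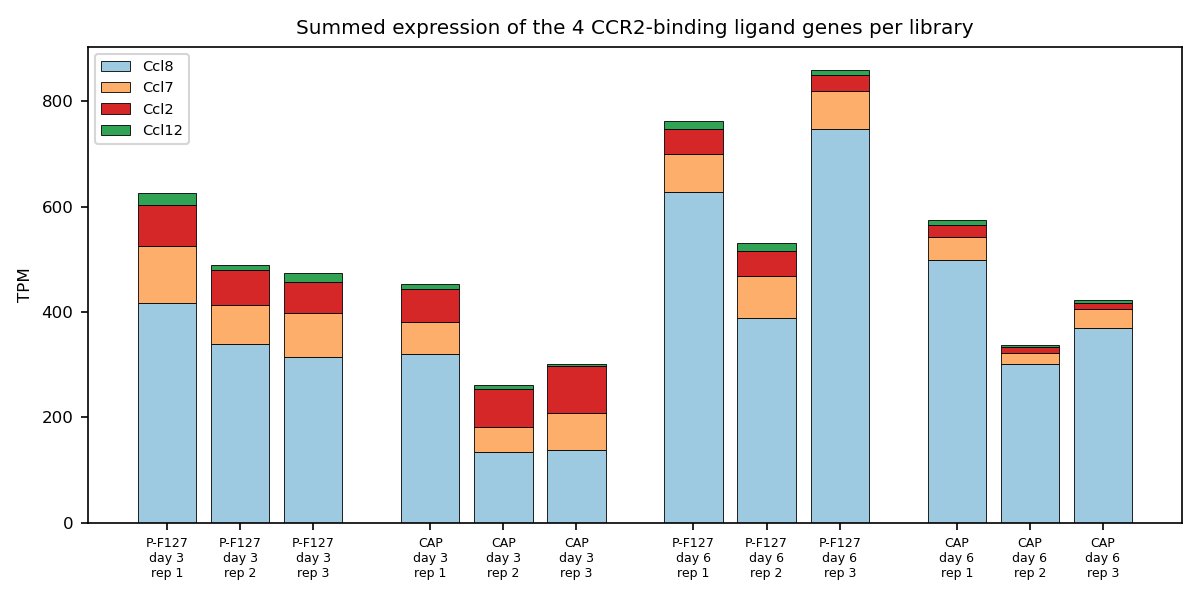
Stacked bars of TPM (axis from 0) for Ccl8, Ccl7, Ccl2 and Ccl12 in each of 12 libraries. Ccl8 is the tallest segment in all 12 libraries and larger than the other 3 together in 11 of them, and the Ccl2 segment shrinks from day 3 to day 6, most in the CAP wounds.

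Among other genes around the axis, each counted in a list of fixed members, few passed the threshold at day 3. Of 7 other CC chemokine genes tested, Ccl5, a chemokine of T and NK cells, fell (6.00 to 2.86 TPM, log2 difference −1.09). Of 9 other CC and atypical receptor genes tested, Ccrl2, a receptor that binds chemerin without signalling, rose (3.29 to 8.65 TPM, 1.19). Ccr8, a receptor of mouse CCL8, was under the 0.3 TPM filter in the CAP wounds at both days (0.127 and 0.282 TPM). It was therefore not tested between treatments within a day. No gene passed in the lists of 7 monocyte growth factor and receptor genes, 11 adhesion and rolling genes, 2 fractalkine-shedding proteases, 11 receptor signalling genes and 8 monocyte transcription factors. Their median log2 differences lay between −0.10 and 0.17.

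At day 6, 5 of 11 adhesion and rolling genes fell in the CAP-treated wounds and none rose, with a list median of −0.80 against −0.12 over all genes, of which 2.34% fell. Without CAP replicate 2, 0 of 11 fell (median −0.52), and without CAP replicate 3, 8 of 11 did (−1.06). Endothelial markers moved with them, with 3 of 8 lower and a median of −0.99, and their part in the values of Icam1, Selp and Vcam1 was not tested. Icam1, a vessel wall ligand of leukocyte integrins, fell from 63.3 to 30.7 TPM (log2 difference −1.08, limma's unadjusted p = 0.00141). Selp, the selectin on which leukocytes roll, fell from 10.6 to 5.14 TPM (−1.11, limma's unadjusted p = 0.00934), and Vcam1, the ligand of integrin α4β1, from 43.8 to 20.6 TPM (−1.20, limma's unadjusted p = 0.0129). The CAP effect on Icam1 differed between days (−1.07, limma's unadjusted p = 0.00224), by −0.83 and under 2-fold without CAP day 6 replicate 2. Itgam, an integrin chain of myeloid cells, was also among those that fell. Csf2rb, the shared receptor chain for GM-CSF, fell from 100.4 to 55.3 TPM (−1.01), 1 of 6 growth factor genes tested, with −0.63 and no call without CAP replicate 2. In the other 5 pathway lists no gene passed the threshold.

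Between the days, Ccl4 rose (9.43 to 28.0 TPM, log2 difference 1.69) and Ccl24 fell (10.9 to 2.94 TPM, −1.90) in the P-F127 wounds, and Ccrl2 rose (3.29 to 19.0 TPM, 2.48, limma's adjusted p = 0.0108). In the CAP-treated wounds Ccl24 (17.1 to 1.74 TPM, −3.01), Ccl9 (240.1 to 64.2 TPM, −1.86) and Ccl6 (1731 to 607 TPM, −1.51) fell, all of them made by myeloid cells. Itgam fell there and Nr4a1, a transcription factor that patrolling monocytes need, rose (17.1 to 35.7 TPM, 1.11). Without CAP day 6 replicate 2 or 3 the 3 chemokine genes and Itgam stayed past the threshold, and Nr4a1 was at 0.96, under 2-fold, without replicate 3. In the test of the difference of the CAP effects, 4 of 10 other CC chemokine genes had a lower effect at day 6 than at day 3, Ccl19, Ccl1 and Ccl6 with the smallest p, where 2.73% of all genes did. Ccl1 was listed at 0 in all CAP libraries at day 6. The effect was also lower at day 6 for 3 of 7 growth factor genes (Csf2, Csf2rb and Csf2rb2), 2 of 11 adhesion genes (Itgam and Icam1), Ccrl2 and Pik3r5. Without CAP day 6 replicate 2 these counts were 3 of 10, 1 of 7 and 0 of 11, and Pik3r5 was no longer past the threshold. Without replicate 3 they were 5 of 10, 4 of 7 and 6 of 11.

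Other genes of classical monocytes moved with Ly6c2 and Ccr2 only in part. Without these 2, the summed TPM of 10 classical monocyte markers at day 3 ran from 1032 to 1306 in the P-F127 libraries and from 924 to 1469 in the CAP libraries. Of the 10, 2 fell at day 3, Ms4a4c (47.0 to 11.1 TPM, log2 difference −2.38, limma's unadjusted p = 0.00225) and Plac8 (142.8 to 67.2 TPM, −1.13, limma's unadjusted p = 8.35e-04). At day 6, 3 of 10 fell, Ms4a4c and Ifitm6 among them, and the sums ran from 1089 to 1344 and from 525 to 1031. Without CAP replicate 2, 0 of 10 fell, and without CAP replicate 3, 5 of 10. In the P-F127 wounds Ms4a4c fell from day 3 to day 6 as Ly6c2 did (47.0 to 12.4 TPM, −1.92, limma's adjusted p = 0.00985), as 2 of 10 of these markers did there. Between days in the CAP-treated wounds 5 of 10 fell (median −0.84), and 2 of 10 without CAP day 6 replicate 2. Neutrophil markers also fell there, 3 of 7 with a median of −1.80 (1 of 7 without that library). T and NK cell markers rose there, 5 of 11 with a median of 0.99 (4 of 11 without CAP day 6 replicate 2, 6 of 11 without replicate 3). In the P-F127 wounds 5 of 8 endothelial, 5 of 5 erythroid and 1 of 11 T and NK cell genes rose. The CAP effect was higher at day 6 than at day 3 for 5 of 11 T and NK cell genes and lower for 5 of 6 erythroid genes. The part of these markers in the changes of Ccl2, Ly6c2, Ccl3 and Cx3cr1 between days was not tested. The list of 12 macrophage markers had no gene past the threshold at either day, with medians of −0.28 and −0.51. Non-classical monocyte markers other than Cx3cr1 had 0 of 6 past the threshold at day 3 and 1 of 6 at day 6 (Ear2, lower, also without CAP replicate 2 or 3). Between days in the CAP-treated wounds 2 of 6 rose, Nr4a1 among them, with values from −1.49 to 1.28 and a median of 0.10. Without CAP day 6 replicate 3, 1 of 6 rose and 1 fell.

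**Figure D5:**
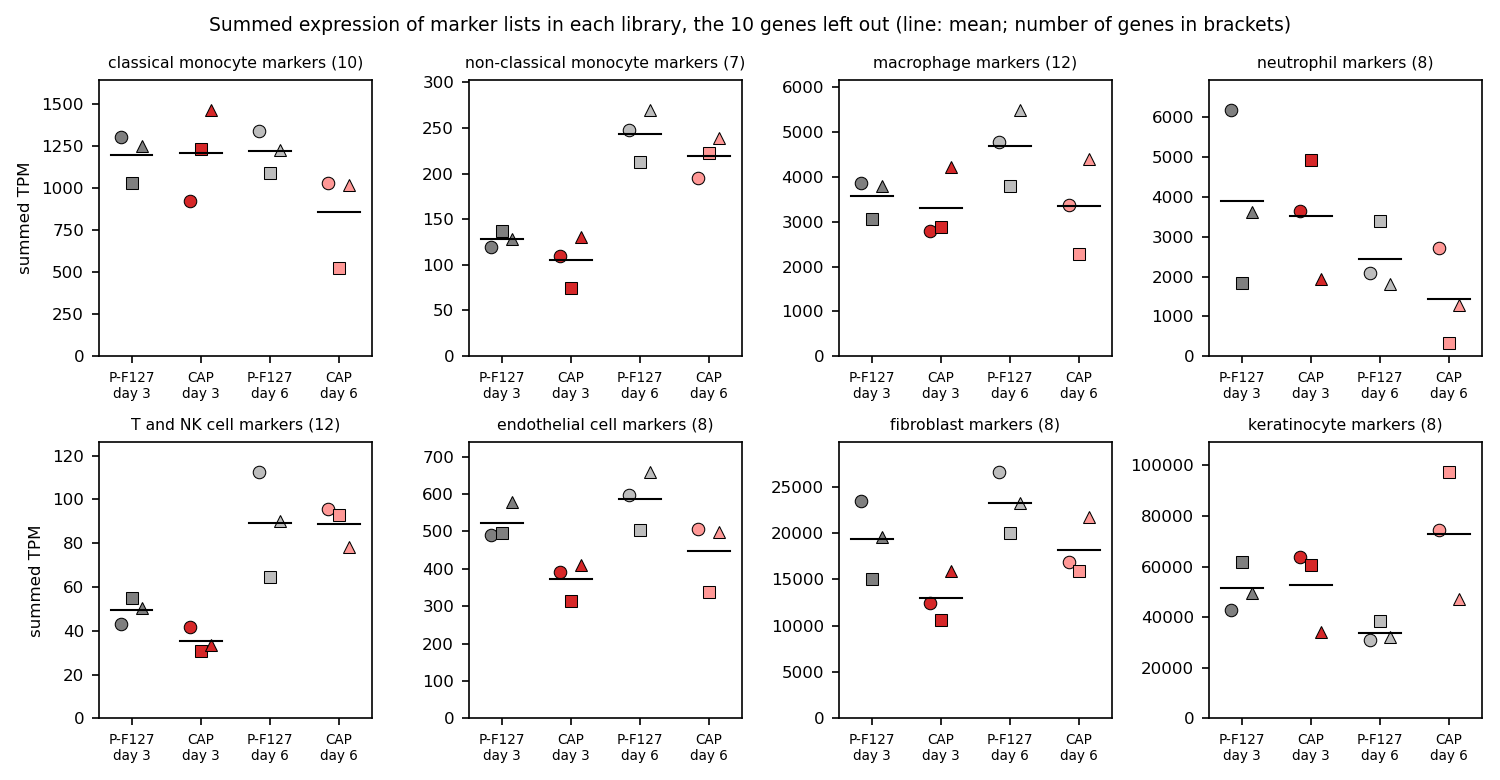
Summed TPM (axes from 0) of 8 marker lists in each library, with the 10 genes left out of the lists and the number of list genes in brackets; the line is the group mean. Classical monocyte sums overlapped between treatments at day 3, and keratinocyte sums were higher in every CAP library than in every P-F127 library at day 6.

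Markers of other cells also moved with the groups. At day 3, T and NK cell sums were 43.1 to 55.2 TPM in the sham group and 30.96 to 41.7 TPM in the CAP group, with 4 of 11 genes lower (Gzma, Ncr1 and Gzmb with the smallest p). Erythroid sums were 514 to 753 TPM and 2357 to 2803 TPM, with 5 of 5 genes tested higher in the CAP-treated wounds. Endothelial sums were 489.8 to 579 TPM in the sham group and 313 to 409.9 TPM in the CAP group, with 0 of 8 genes past the threshold. Ly6c1, the neighbour of Ly6c2, was 1 of these 8 and supplied most of each sum (365, 404 and 463 against 253, 206 and 326 TPM). The lower sums are therefore not separate from the lower Ly6c1. Fibroblast sums overlapped (15051 to 23436 against 10637 to 15950.0 TPM), also with 0 of 8 genes past it. Neutrophil sums overlapped (1843 to 6198 against 1947 to 4926 TPM), and 1 of 8 genes rose (Mmp8). None of the genes in these lists was at 0 in every library of a group, and their part in the results on Ccr2, Cx3cr1, Ccl12 and Ly6c2 was not tested.

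At day 6, keratinocyte sums were 31106 to 38279 TPM in the sham group and 47106 to 97417 TPM in the CAP group, with Krt1 and Krt10 of 8 genes higher, also without CAP replicate 2 or 3. Endothelial sums, again with Ly6c1 in the list, were 504 to 660 and 337 to 507 TPM. Of the genes, 3 of 8 were lower (Pecam1, Cdh5 and Emcn), 0 of 8 without CAP replicate 2 and 6 of 8 without CAP replicate 3. Macrophage sums overlapped (3804 to 5506 against 2288 to 4394 TPM), as did neutrophil sums (1813 to 3400 against 335 to 2725 TPM). CAP replicate 2 had the lowest neutrophil, macrophage and classical monocyte sum and the highest keratinocyte sum, and it also had the lowest Ccr2, Ccr1, Ccl7, Ccl8, Ccl12, Ccl3 and Ly6c2 of its group. Without it, 1 of 10 members fell (Ccl2) and 311 genes in all were past the threshold, against 697. Without CAP replicate 3, 5 of 10 fell (Ccr2, Ccr1, Ccl2, Ccl7 and Ccl3) and 1483 genes were past it. The part of these markers in the results on Ccr2, Ccl2 and Ccl7 was not tested.

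Genes whose pattern was most like that of a member over the 12 libraries were named by the root mean square difference in centred log2(TPM + 0.1) among 16168 genes, as a description. Nearest to Ccr2 were Olfr56 (0.20), Aif1 (0.26), Sp110 (0.30), Ifi47 (0.31) and Gm1966 (0.31), where the median gene was at 0.76. Aif1 encodes IBA1, a protein of macrophages, Sp110 and Ifi47 are interferon-response genes, and Olfr56 shares exons on 1 strand with Ifi47, so that both may hold the same reads. Nearest to Cx3cr1 were Gm12251 (0.25), H2-Aa (0.29), Cd74 (0.30), Cd209a (0.32) and Gpr34 (0.32), with a median gene at 0.71. H2-Aa and Cd74 belong to MHC class II presentation and Cd209a marks monocyte-derived dendritic cells. Nearest to Ccl2 were Arhgap8 (0.38), Ccl9 (0.40), E230016K23Rik (0.50), Pf4 (0.51) and Nt5c1a (0.51), with a median gene at 0.99, so Ccl2 had less close company. Ccl9 and Pf4 are chemokine genes of myeloid cells and platelets. Points of this kind share libraries and groups, and no test was made.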

How the data were processed

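The authors trimmed reads of 12 bulk RNA libraries (SureSelect XT HS2 mRNA kit, paired-end) with Trimmomatic 0.36 and estimated expression with StringTie. They deposited 1 table of TPM per library with 55487 genes and gave the genome build as mm10. No source used here names the aligner, the annotation version or the use of strand. GENCODE M21 holds 55227 of the identifiers, 54863 with the same coordinates, so GRCm38 coordinates apply. Each deposited column summed to between 1000003.08 and 1000003.23 TPM, with 0.0001 in place of 0, which was set to 0. TPM carries no depth, so no counting error or lower limit could be given, and precision rests on the spread of 3 libraries per group. Each library had 18533 to 19325 genes at 0.3 TPM or more.

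Values were tested as log2(TPM + 0.1) with limma 3.58.1 in R 4.3.3 (intensity trend) and adjusted by Benjamini-Hochberg over all genes tested. A fold change on this scale understates the change of low genes. Genes with a mean of 0.3 TPM or more in both groups were tested, or in at least 1 of 4 groups for the difference of the CAP effects. All 10 members passed each filter. Exact 2-sided permutation tests used all divisions of 6 libraries. The fits were tried on simulated data with independent noise for each gene and added changes larger than 2-fold. Such data hold no shift of a whole library, so they do not test calls near 2-fold. Python 3.11.15, numpy 2.4.6, pandas 2.3.3, biopython 1.88 and matplotlib 3.10.9 were used for tables, sequences and figures.

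Alternatives were a pseudocount of 1 or 0.01 TPM, no filter or one of 1 TPM, median-ratio scaling, quantile normalization, a replicate block, 1 fit of all 12 libraries, the sum of Ly6c2 and Ly6c1, and each library left out in turn. The list counts without CAP day 6 replicate 2 or 3 were added after the data had been seen. Named genes were the 10 members, in each pathway list the genes past the threshold (the 3 with the smallest p where more passed), at most 3 genes per marker list, and the 5 genes with a mean of 1 TPM or more that were most like Ccr2, Cx3cr1 and Ccl2. Mast cell, skeletal muscle and dendritic cell markers had 0 of 6, 0 of 6 and 0 of 7 genes past the threshold at day 3, and 0 of 6, 1 of 6 and 0 of 7 at day 6. The members and lists were chosen with earlier results of these data known. Sequences of proteins were not analysed here, and the values of some single genes counted in the lists are not reported here.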

Additional observations from a re-analysis of the deposited data

Results flagged for a closer look

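For 3 genes the CAP effect differed between day 3 and day 6 by limma's test of the difference itself over all 12 libraries, at an unadjusted p under 0.05 and 2-fold, where 4.9% of all genes tested did. Ccl2 had a difference of the effects of −1.64 on the log2 scale (day 3 effect 0.12, day 6 effect −1.52), and limma's adjusted p was 0.428. Each CAP library at day 6 was below each sham library of that day, while at day 3 the groups overlapped. Ly6c2 had a difference of 2.13 (day 3 effect −2.48, day 6 effect −0.35, adjusted p = 0.428 from limma). Its sum with Ly6c1, which mostly follows Ly6c1, gave 0.74, under 2-fold. Ccr1 had a difference of −1.90 (day 3 effect 0.40, day 6 effect −1.50, adjusted p = 0.433 from limma), with overlapping groups at both days. Groups of 3 libraries were not tested for single far values.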

How the results depend on the processing

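Of 755 alternative values for single members, 677 kept their direction and side of the threshold, 37 lost the threshold, 15 gained it and 26 changed sign, each of the last kind from a value not past the threshold. Past the threshold in every alternative run were Ccr2 at day 3, Ccl2 at day 6, Ccl3 between days in P-F127 wounds, Ccl2 between days in CAP wounds and the difference of the Ccl2 effects. Ly6c2 lost its call only in the sum with Ly6c1, which mostly follows Ly6c1. This held at day 3, between days in P-F127 wounds and for the difference of the Ly6c2 effects.

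Counts over all genes moved with the pseudocount, the filter and single libraries. With a pseudocount of 1 TPM, 154 genes (against 290) were past the threshold at day 3, 385 (against 697) at day 6, 405 (against 688) between days in P-F127 wounds, 299 (against 507) in CAP wounds and 580 (against 994) in the difference of effects. With no filter there were 568 at day 3, 1150 between days in P-F127 wounds and 835 in CAP wounds, and with a filter of 1 TPM 186 at day 3. Leaving out 1 library gave 204 to 510 at day 3, 311 to 1483 at day 6, 641 to 873 and 382 to 886 between days in P-F127 and CAP wounds, and 657 to 1777 for the difference. The highest counts at day 6, between days in CAP wounds and for the difference came without CAP day 6 replicate 3, and the lowest without CAP day 6 replicate 2. Of the 10 members, 2 to 5 were then past it at day 3 (2 without P-F127 replicate 1, CAP replicate 2 or CAP replicate 3), 1 to 5 at day 6, 2 each time between days in P-F127 wounds, 1 to 3 in CAP wounds (1 without CAP day 3 replicate 3) and 2 to 4 for the difference. The cause was not tested.

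Signs changed when 1 library was left out, with these ranges over the libraries. At day 3 they were −0.014 to 0.25 for Ccl2 and −0.036 to 0.21 for Cx3cl1, and at day 6 −0.66 to 0.075 for Cx3cr1 and −0.050 to 0.22 for Cx3cl1. Between days in P-F127 wounds they were −0.59 to 0.046 for Ccl12, −0.20 to 0.034 for Cx3cl1 and −0.21 to 0.53 for Cx3cr1. In CAP wounds they were −0.57 to 0.16 for Ccr2, −0.28 to 0.34 for Ccl12, −0.23 to 0.043 for Cx3cl1, −0.24 to 1.24 for Ccl3 and −0.80 to 0.63 for Ly6c2, which was also at −0.027 with a pseudocount of 1 TPM. For the difference of effects they were −0.031 to 0.61 for Ccl12 and −0.11 to 0.16 for Cx3cl1.

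The correlation of deviations between libraries with the same replicate number ran from −0.17 to 0.29 over 12 pairs and was over 0.1 in 3, short of every pair, so the numbers were not taken to pair the libraries. The own number was the best match in 8 of 12, a hint from the data and not the design. With a replicate block, 298, 725, 709, 548 and 1084 genes and 4, 3, 2, 4 and 3 members were past the threshold, in the order used above. Depth is unknown, and 3 libraries per group cannot give an exact permutation p below 0.1.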
